A study of Homo sapiens with 11 samples.

Results

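The 10 antioxidant genes described here comprise 8 of the glutathione and thioredoxin systems, SLC7A11, GCLC, GCLM, GSR, TXN, TXNRD1, PRDX1 and SRXN1, with the oxidative stress genes NQO1 and OSGIN1. They were taken by symbol, from a list drawn up with earlier results of these data known, from the 38557 genes of a raw count table, and all 10 were among the 14683 genes with enough counts to be tested. RNA had been sequenced from MOLM-13 after 72 h of culture with a drug or with its diluent; these cells are a human line from acute myeloid leukemia that carries a KMT2A rearrangement. The groups were DMSO alone (n = 4), 1 µM MI-503, an inhibitor of Menin, which is a partner of KMT2A (n = 4), and 1 µM MI-503 to which 100 nM PR-957 was added, also called ONX-0914 and an inhibitor of the immunoproteasome subunit PSMB8 (n = 3, replicates 1, 2 and 4). This last treatment is named the combination. All 11 libraries came from this 1 cell line, none received PR-957 without MI-503, and the labels do not say whether replicates were separate cultures, so p-values measure the spread between these libraries, which may be technical.

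Glutathione is built from cystine that enters through the xCT transporter, it reduces peroxides through glutathione peroxidases, and its oxidized form is returned to the reduced form with NADPH. Thioredoxin works beside it: it passes electrons to peroxiredoxins and is itself reduced by thioredoxin reductase. Many of these genes are known targets of NRF2, a transcription factor that KEAP1 marks for degradation by the proteasome, and NRF2 with a small MAF protein binds the antioxidant response element in their promoters.

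Libraries held 18891243 to 41153974 counted fragments, with the deepest and the shallowest both in the combination (replicates 1 and 2). Levels are given as CPM, counts relative to TMM-scaled library totals. The leukemic myeloid identity was checked with 8 markers, of which 7 reached 1 CPM and CSF2RA, whose exons are annotated on 2 chromosomes, had no count in any library. The summed myeloid markers ran from 1401 to 1453 CPM in DMSO, from 1589 to 1704 in MI-503 and from 1659 to 2152 in the combination, with combination replicate 1 inside the MI-503 range. Members of the sum differed in direction: FLT3 ran from 302 to 325 CPM in DMSO, from 229 to 230.4 in MI-503 and from 179.8 to 226 in the combination, whereas CEBPA, CD68 and ITGAM were higher in each treated library than in each DMSO library. The part of these levels in the results below was not tested. None of 4 T cell and none of 4 erythroid markers reached 1 CPM. Of the B cell markers, PAX5 stood at 23.3 to 46.4 CPM and MS4A1 had no count, and of 4 epithelial markers only KRT8 passed 1 CPM. Of 4 fibroblast markers, none reached 1 CPM in DMSO or MI-503. COL1A1 (1.02 CPM) and PDGFRB (1.39 CPM) did so in combination replicate 1 only. In bulk libraries, fewer cells of a kind and less RNA per cell cannot be told apart.

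The letters of the antioxidant response element were searched upstream of the 10 genes, since several of them are known to carry it. The core searched was TGACNNNGC, on both strands, in the 1000 bases before each start site that RefSeq lists (GRCh38.p14, whose windows had the same letters as hg38). SLC7A11, GSR and PRDX1 have no entry in that table. Of the other 7 genes, 6 held the core, and 31.9% of all 35109 windows of that length held it too. Within the shorter stretch from 250 bases before to 50 bases after the start, 2 of 7 genes held it (GCLM and TXNRD1), against 13.3% of 35116 windows. The 2 kinds of count differ: TXNRD1 has more than a single start and counted once if any window held the core. The shares are per window. The more specific form TGACTCAGC, which is 1 of the forms that TGACNNNGC includes, was found upstream of NQO1 alone among the 7, and in 1.42% of all windows. SRXN1 held neither form in this window. The matches in the 1000 bases before a start are given on the strand of the gene with the core in capitals. Where the core lies on the opposite strand, its reverse complement is seen.
GCLM, chr1:93909446-93909474, minus strand: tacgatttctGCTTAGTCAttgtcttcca
TXNRD1, chr12:104286920-104286948, plus strand: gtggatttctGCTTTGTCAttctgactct
TXNRD1, chr12:104215670-104215698, plus strand: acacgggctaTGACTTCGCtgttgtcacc
NQO1, chr16:69726997-69727025, minus strand: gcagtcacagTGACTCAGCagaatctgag
OSGIN1, chr16:83952673-83952701, plus strand: agacaatctgTGACTTGGCcccagttttc
TXN, chr9:110257070-110257098, minus strand: gcactaaaccGCTGTGTCAagctggagca
GCLC, chr6:53545953-53545981, minus strand: acaggtcattGCTCTGTCAacacatattt
The GCLM core lay 34 to 26 bases before the RefSeq start, inside an exon of longer GCLM transcripts in the annotation of the files. Of the TXNRD1 cores printed, one lay 102 to 94 bases before a start within the gene, in an intron, and the other lay 99 to 91 bases before the outermost start. The shorter stretch around that outermost start held 2 cores. The further core there reached or lay beyond the start and is not printed. The remaining cores were farther out, at 455 to 447 bases for NQO1, 557 to 549 for OSGIN1, 581 to 573 for TXN and 870 to 862 for GCLC, all outside annotated exons. These matches describe letters in a window and were not measured as bound in these data.

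Over the 10 genes, the called changes with MI-503 alone were falls, and those in the combination were mostly rises. With MI-503 alone against DMSO, 0 genes rose, 5 fell (GCLC, GSR, TXNRD1, PRDX1 and NQO1) and 5 did not pass edgeR's test; at an unadjusted p under 0.05, and likewise by DESeq2, 1 gene (GCLM) counted as higher, and by limma-voom 0. Of all tested genes, 22% rose and 29.3% fell in that comparison, and a change of some kind was thus common. With upper-quartile scaling the split over all tested genes was 3968 higher and 3356 lower, against 3235 and 4307 with the TMM scaling used here. In the combination against DMSO, 6 rose (SLC7A11, GCLC, GCLM, GSR, SRXN1 and OSGIN1), 2 fell (NQO1 and PRDX1) and 2 did not pass (TXN and TXNRD1), where 31.7% of tested genes rose and 32.8% fell. In the combination against MI-503, 9 of 10 rose and TXN did not pass, where 23.6% of tested genes rose and 23.8% fell. A rise of at least 2-fold was reached by 0 genes with MI-503, where 4.22% of tested genes did so, and by 3 genes (SLC7A11, GCLM and OSGIN1) in the combination both against DMSO, where 8.54% did, and against MI-503, where 3.07% did. The median log2 fold change of the 10 genes was −0.14 for MI-503 against DMSO, 0.34 for the combination against DMSO and 0.58 for the combination against MI-503. Over all tested genes the same medians were −0.03, 0.01 and 0.0041.

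**Figure D1:**
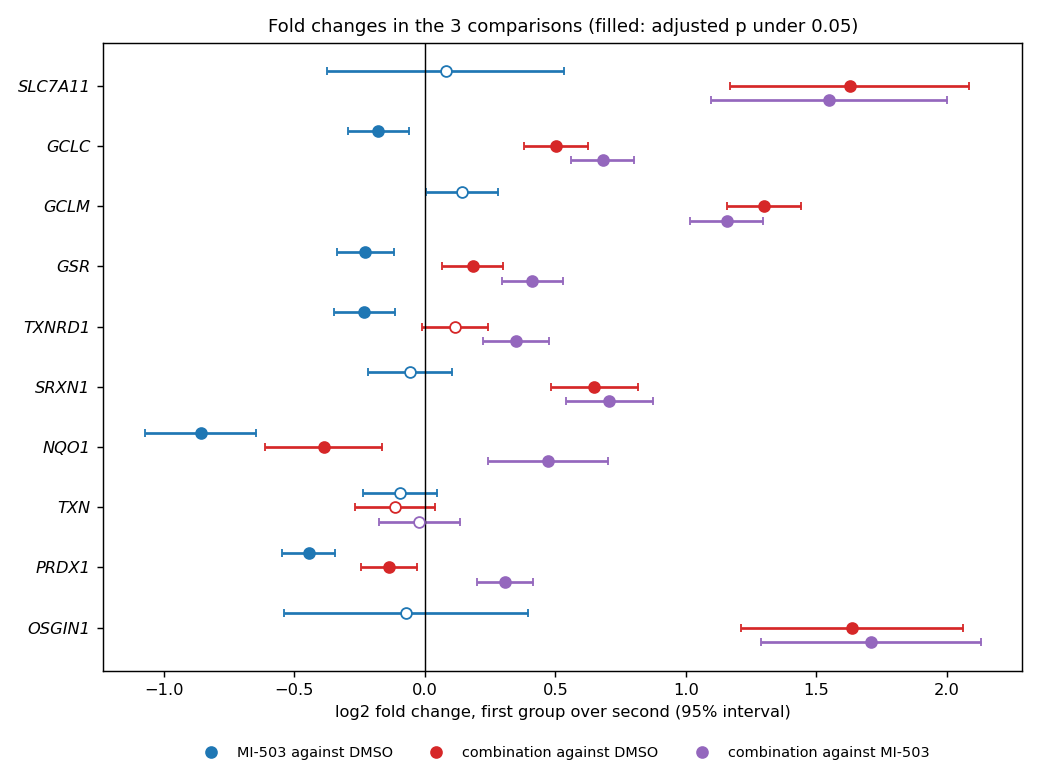
Log2 fold change of each of the 10 genes (x axis, with 95% intervals) in the 3 comparisons, filled where the edgeR adjusted p was under 0.05. For the combination against MI-503, 9 points lie to the right of 0 and are filled, while TXN sits at −0.02; for MI-503 against DMSO no filled point lies to the right of 0 and NQO1 is farthest to the left at −0.86.

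Of the 10 genes, SLC7A11, GCLC and GCLM belong to cystine uptake and glutathione synthesis. All 3 were higher in the combination than in either other group. SLC7A11 (chr4:138164097-138242349) encodes the cystine-importing subunit of xCT. Its level was 29.6, 19.7, 24.8 and 31.2 CPM in DMSO replicates 1 to 4, 30.8, 25.6, 25.4 and 30.0 CPM in MI-503 replicates 1 to 4, and 43.6, 99.1 and 105 CPM in combination replicates 1, 2 and 4. Every combination library was above every other library, but replicate 1, the deepest, stood well below the other 2, and the group SD of 33.7 CPM around a mean of 82.4 was the widest of the 10 genes in absolute terms. Against DMSO the log2 fold change was 1.63 (SE 0.22; edgeR adjusted p = 4.21e-06), and leaving out single libraries moved it between 1.40 and 1.97. Against MI-503 it was 1.55 (SE 0.21; edgeR adjusted p = 1.73e-05). MI-503 alone gave 0.08 with a 95% interval of −0.37 to 0.53 (edgeR adjusted p = 0.784), and the MI-503 libraries lay within the range of the DMSO libraries. Of its exon bases, 2.82% are shared with the antisense gene SLC7A11-AS1, and since counting did not use strand, fragments that overlapped exons of both genes had been left out.

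GCLC and GCLM encode the catalytic and the modifier subunit of glutamate-cysteine ligase, the rate-limiting enzyme of glutathione synthesis. GCLC (chr6:53497341-53545101) stood at 30.4, 27.1, 29.2 and 32.4 CPM in DMSO, at 26.9, 25.6, 26.5 and 26.2 CPM in MI-503 and at 42.9, 41.8 and 41.7 CPM in the combination. The 3 groups did not overlap, with MI-503 lowest, and the combination libraries were nearly level. The log2 fold change was −0.18 (SE 0.06; edgeR adjusted p = 0.0126) for MI-503 against DMSO. It was 0.50 (SE 0.06; edgeR adjusted p = 7.07e-07) for the combination against DMSO and 0.68 (SE 0.06; edgeR adjusted p = 7.62e-08) against MI-503. The small fall with MI-503 did not pass without DMSO replicate 4 (−0.14; edgeR adjusted p = 0.0549), with upper-quartile scaling (−0.12; 0.0881) or with no filter on low counts (−0.16; 0.0568).

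GCLM (chr1:93885199-93910370) also rose in the combination. It was at 29.6, 24.9, 29.4 and 31.5 CPM in DMSO, at 31.0, 30.8, 33.0 and 32.8 CPM in MI-503, and at 71.2, 66.6 and 75.2 CPM in the combination, where each library held more than any library of the other groups. The rise was 1.30 in log2 against DMSO (SE 0.07; edgeR adjusted p = 4.66e-11) and 1.16 against MI-503 (SE 0.07; edgeR adjusted p = 5.74e-10), with all libraries of the combination close together. For MI-503 alone the value was 0.14 (SE 0.07; edgeR adjusted p = 0.0760), with overlapping groups. That value lay near the threshold and passed in 11 of 19 alternative analyses, among them DESeq2 (0.17; adjusted p = 0.0353) and the fits without DMSO replicate 4 (0.19) or without any 1 combination library (0.18 to 0.19).

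Because both subunits are measured in each library, their ratio per kilobase of annotated exon was also formed, and it needs no scaling between libraries. GCLM to GCLC was 0.580 ± 0.0210 (SD, n = 4) in DMSO, 0.725 ± 0.0279 (n = 4) in MI-503 and 1.01 ± 0.0649 (n = 3) in the combination. The ranges were 0.551 to 0.602, 0.689 to 0.749 and 0.952 to 1.08, so the 3 groups stood apart and the order was DMSO, MI-503, combination. The combination was the group in which fragments per kilobase of the modifier subunit were about level with those of the catalytic subunit.

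GSR (chr8:30678061-30727999), glutathione reductase, returns oxidized glutathione to its reduced form. Its level was 108, 99.0, 104 and 107 CPM in DMSO, 84.8, 85.5, 92.7 and 93.9 CPM in MI-503, and 110.2, 118 and 128 CPM in the combination. The groups did not overlap, with MI-503 lowest and the combination highest, although combination replicate 1 was just above DMSO replicate 1. With MI-503 the gene fell by 0.23 on the log2 scale (SE 0.05; edgeR adjusted p = 0.00143). The combination exceeded MI-503 by 0.41 (SE 0.06; edgeR adjusted p = 1.26e-05) and DMSO by 0.18 (SE 0.06; edgeR adjusted p = 0.00771). The last of these did not pass without combination replicate 4 (0.13; edgeR adjusted p = 0.0566).

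Of the 4 genes of the thioredoxin branch, 3 changed in at least 1 comparison. TXN (chr9:110243810-110256507), thioredoxin itself, was the only 1 of the 10 genes that passed no test. It stood at 142, 136, 141 and 140.1 CPM in DMSO, at 134, 124, 138 and 128 CPM in MI-503, and at 110.4, 128 and 149 CPM in the combination. The combination libraries spanned the lowest and the highest of all 11 values, and the groups overlapped. Its log2 fold change was −0.12 (95% interval −0.27 to 0.04; edgeR adjusted p = 0.177) for the combination against DMSO, −0.02 (−0.17 to 0.13; edgeR adjusted p = 0.842) against MI-503, and −0.09 (−0.24 to 0.05; edgeR adjusted p = 0.257) for MI-503 against DMSO. Without combination replicate 4 it passed as lower, by −0.24 against DMSO (edgeR adjusted p = 0.00203) and −0.18 against MI-503 (edgeR adjusted p = 0.0193), and without replicate 1 the signs were positive at 0.01 and 0.06.

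TXNRD1 (chr12:104215779-104350307), the cytosolic thioredoxin reductase, is a selenoprotein that reduces thioredoxin with NADPH. Its level was 297, 244, 282 and 289.7 CPM in DMSO, 226, 228, 252 and 241 CPM in MI-503 and 299, 297 and 309 CPM in the combination. DMSO replicate 2 was below MI-503 replicate 3, so these groups overlapped, whereas each combination library was above each MI-503 library. MI-503 against DMSO gave −0.23 (SE 0.06; edgeR adjusted p = 0.00199), and the combination against MI-503 gave 0.35 (SE 0.06; edgeR adjusted p = 0.000130). Against DMSO the combination gave 0.12 (95% interval −0.01 to 0.24; edgeR adjusted p = 0.0959), a value that passed in 6 of 19 alternatives, among them the fits without DMSO replicate 1 (0.15) or combination replicate 1 (0.14). The ratio of TXNRD1 to TXN per kilobase was 0.344 ± 0.0227 (SD, n = 4) in DMSO, 0.313 ± 0.0147 (n = 4) in MI-503 and 0.410 ± 0.0560 (n = 3) in the combination, which overlapped DMSO (0.357 to 0.469 against 0.312 to 0.361) but not MI-503.

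PRDX1 and SRXN1 belong together, since peroxiredoxin 1 removes peroxide at the expense of thioredoxin and sulfiredoxin repairs peroxiredoxins that have been overoxidized. PRDX1 (chr1:45511035-45522890) was at 269, 252, 265 and 255 CPM in DMSO, at 187, 190.0, 199.7 and 189 CPM in MI-503 and at 221, 232 and 258 CPM in the combination. All MI-503 libraries were below all others, and combination replicate 4 reached into the DMSO range. The gene fell by 0.45 on the log2 scale with MI-503 (SE 0.05; edgeR adjusted p = 7.65e-07). The combination was 0.31 above MI-503 (SE 0.05; edgeR adjusted p = 9.87e-05), or 0.20 without combination replicate 4. It was 0.14 below DMSO (log2 fold change −0.14, SE 0.05; edgeR adjusted p = 0.0264), a call that was lost in 9 of 19 alternatives, among them the fits without DMSO replicate 1 or 3 (−0.12 and −0.13) or combination replicate 1 or 2 (−0.07 and −0.12). Of the PRDX1 exon bases, 28.2% are shared with MMACHC, and fragments that overlapped exons of both genes had been left out of the counts.

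SRXN1 (chr20:646615-653200) rose in the combination. It stood at 33.6, 29.3, 30.2 and 34.6 CPM in DMSO, at 27.5, 29.1, 33.4 and 32.8 CPM in MI-503, and at 46.9, 48.1 and 55.4 CPM in the combination. DMSO and MI-503 overlapped, and the combination was above both in each library. The log2 fold change was 0.65 (SE 0.08; edgeR adjusted p = 1.40e-06) against DMSO and 0.71 (SE 0.08; edgeR adjusted p = 1.68e-06) against MI-503. For MI-503 alone it was −0.06 (95% interval −0.22 to 0.10; edgeR adjusted p = 0.556). SRXN1 to PRDX1 per kilobase was 0.0653 ± 0.00526 (SD, n = 4) in DMSO, 0.0854 ± 0.00650 (n = 4) in MI-503 and 0.113 ± 0.00198 (n = 3) in the combination, and the ranges of the 3 groups did not overlap. The size of this ratio is overstated in each group, since fragments on the exon bases that PRDX1 shares with MMACHC were left out.

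**Figure D2:**
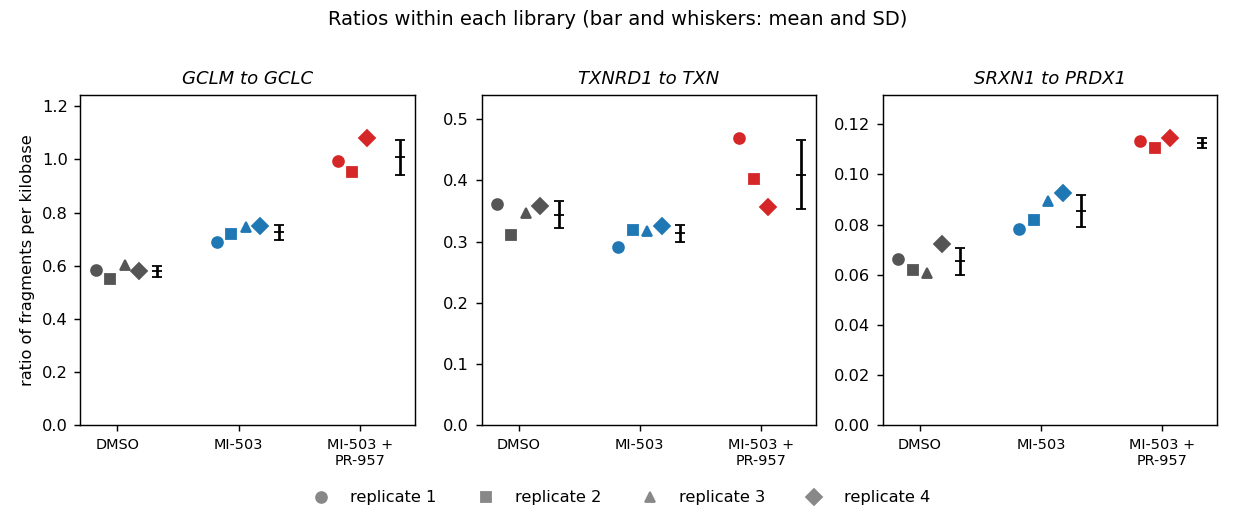
Ratio of fragments per kilobase of annotated exon (y axes, no unit, starting at 0) for GCLM to GCLC, TXNRD1 to TXN and SRXN1 to PRDX1, with 1 point per library and the group mean and SD beside the points. GCLM to GCLC and SRXN1 to PRDX1 step up from DMSO through MI-503 (0.725 and 0.0854) to the combination (1.01 and 0.113) without overlap, and TXNRD1 to TXN in the combination spreads from 0.357 to 0.469.

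NQO1 (chr16:69709401-69726560) encodes a quinone reductase that is widely used as a readout of NRF2 activity, and here it was lower than DMSO in both treated groups. Its level was 36.9, 25.7, 35.3 and 33.0 CPM in DMSO, 16.3, 18.5, 18.5 and 18.9 CPM in MI-503, and 28.6, 23.4 and 22.7 CPM in the combination. MI-503 libraries were lowest without overlap, and the combination libraries lay between the other groups, with replicate 1 above DMSO replicate 2. NQO1 fell by 0.86 on the log2 scale with MI-503 (log2 fold change −0.86, SE 0.10; edgeR adjusted p = 2.27e-06), the furthest of the 10 genes in that comparison. The combination was 0.47 above MI-503 (SE 0.11; edgeR adjusted p = 0.00182) and was lower than DMSO, with −0.39 (SE 0.11; edgeR adjusted p = 0.00404).

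OSGIN1 (chr16:83953240-83966332), an oxidative stress induced growth inhibitor, was the least abundant of the 10 genes. It had 55, 56, 24 and 26 fragments in DMSO, 42, 53, 43 and 32 in MI-503, and 208, 111 and 151 in the combination. In CPM these were 1.86, 2.57, 1.14 and 1.23 in DMSO, 1.94, 1.54, 1.78 and 1.31 in MI-503, and 4.91, 5.57 and 5.62 in the combination, which stood apart from both other groups. The log2 fold change was 1.64 (SE 0.20; edgeR adjusted p = 1.68e-06) against DMSO and 1.71 (SE 0.20; edgeR adjusted p = 2.96e-06) against MI-503. MI-503 alone gave −0.07 with a wide 95% interval of −0.54 to 0.40 (edgeR adjusted p = 0.815).

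**Figure D3:**
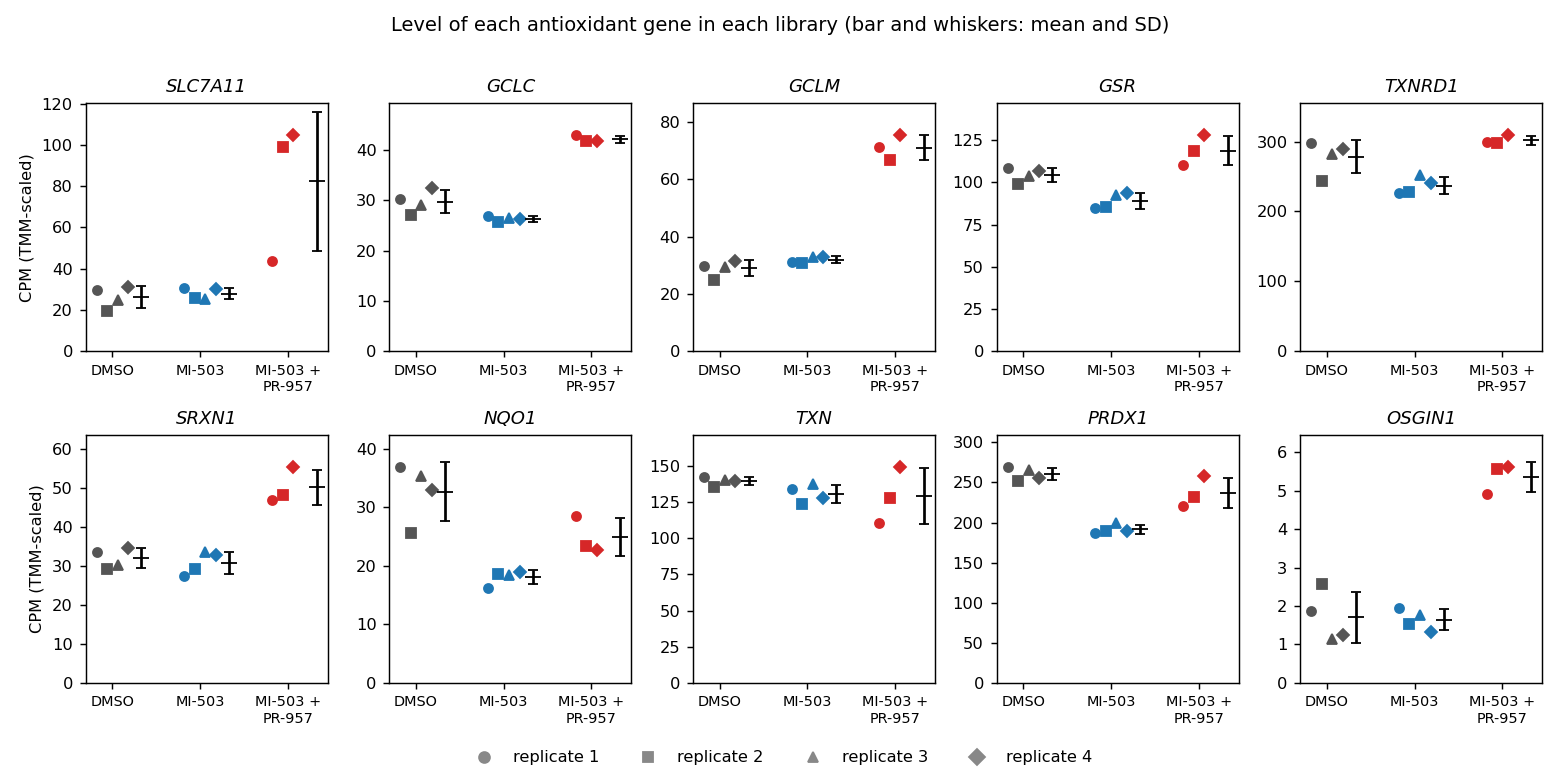
Level of each of the 10 genes in CPM (linear y axes from 0, own scale per gene) in each of the 11 libraries, with group mean and SD at the side. SLC7A11 in the combination has 1 library at 43.6 CPM and 2 at 99.1 and 105 CPM, GCLM and OSGIN1 stand apart as tight groups, and PRDX1 and NQO1 are lowest in MI-503.

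Read by library, the combination was coherent as a group but not even. The median over the 10 genes of log2 CPM relative to the DMSO mean was 0.32, 0.34 and 0.39 in combination replicates 1, 2 and 4, between −0.20 and −0.10 in the MI-503 libraries, and between −0.13 and 0.06 in the DMSO libraries. Replicate 4 held the highest combination value for 8 of the 10 genes, and replicate 1 the lowest for 6. The exceptions were GCLC and NQO1, for which replicate 1 was the highest combination library. Together the 10 genes took 0.0839% to 0.0936% of all fragments in DMSO, 0.0754% to 0.0810% in MI-503 and 0.101% to 0.119% in the combination. Groups did not overlap for 4 of the 10 genes in MI-503 against DMSO, for 6 in the combination against DMSO and for 9 in the combination against MI-503. The same held for 50.3%, 60.5% and 47.6% of all tested genes.

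HMOX1, heme oxygenase 1, is an NRF2 and BACH1 target that varied widely between combination libraries, with 7.98, 89.3 and 47.4 CPM in replicates 1, 2 and 4 against 0.230 to 0.569 CPM in DMSO and 0.407 to 0.826 CPM in MI-503. Its low library, replicate 1, was also the low library of SLC7A11, while in the same library GCLC was the highest of the 3 and GCLM and TXNRD1 lay between the other 2.

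**Figure D4:**
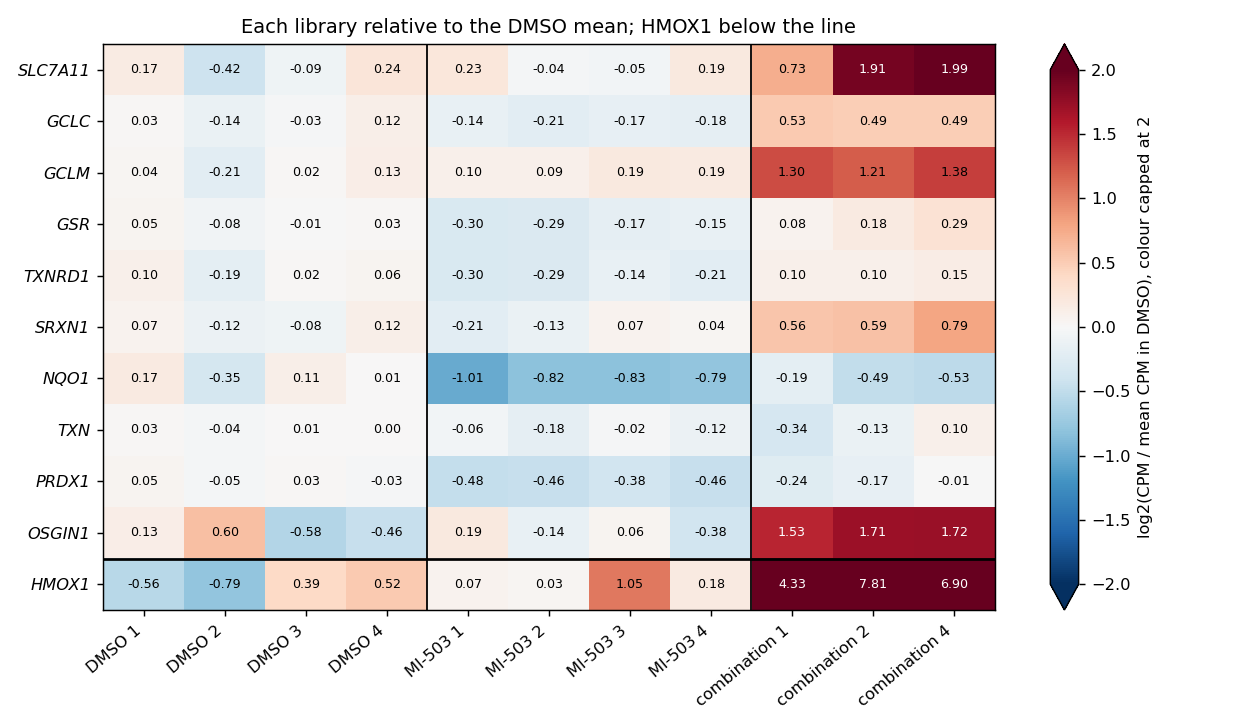
Log2 of the CPM in each library over the DMSO mean, for the 10 genes and, below the line, HMOX1; printed values are log2 differences and colours are capped at 2. Combination replicate 1 has 0.73 for SLC7A11 and 4.33 for HMOX1, against 1.91 and 7.81 in replicate 2, whereas GCLC is level at 0.53, 0.49 and 0.49.

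Levels of different genes were ordered only per kilobase of exon, rescaled to a common total in each library. The PRDX1 length includes the 28.2% of exon bases shared with MMACHC, although fragments on both genes were not counted. Its values here are therefore understated, and its order relative to TXN is not settled in any group. In DMSO the order was PRDX1 (455 ± 11.1, SD, n = 4) and TXN (446 ± 8.55), whose ranges overlapped, then TXNRD1 (154), GSR (77.0), NQO1 (30.5) and SRXN1 (29.7), which also overlapped, GCLC (18.3), GCLM (10.6), SLC7A11 (6.32) and OSGIN1 (2.08). In MI-503, TXN (420 ± 19.5) was above PRDX1 (336 ± 8.45) without overlap, and NQO1 (16.9) had moved down beside GCLC (16.3). In the combination PRDX1 (443 ± 37.0, n = 3) and TXN (442 ± 68.8) again overlapped, and GCLM (28.0), GCLC (27.8), NQO1 (24.9) and SLC7A11 (21.3) formed a run in which each overlapped the next. OSGIN1 was last in each group, with 7.04 in the combination.

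The remaining genes of these pathways were read from lists that exclude the 10. Of 11 tested genes for cystine uptake and glutathione synthesis and breakdown (12 listed), 4 rose and 5 fell in each of the 3 comparisons. Over all tested genes, 22% rose and 29.3% fell with MI-503. In the combination, 31.7% rose and 32.8% fell against DMSO, and 23.6% rose and 23.8% fell against MI-503. SLC3A2, the other subunit of xCT, was lower than DMSO with MI-503 (log2 fold change −0.69, edgeR adjusted p = 5.97e-06). In the combination SLC3A2 was also lower than DMSO, with overlapping groups (−0.24, edgeR adjusted p = 0.0327), and higher than MI-503 (0.44, edgeR adjusted p = 0.000972). GSS, glutathione synthetase, passed in none of the comparisons. CHAC1, which degrades glutathione, fell from 7.50 CPM in DMSO to 2.63 in MI-503 (log2 fold change −1.51, SE 0.15; edgeR adjusted p = 4.21e-07) and 1.79 in the combination. OPLAH, which recovers glutamate from 5-oxoproline, rose with MI-503 (0.70, SE 0.07; edgeR adjusted p = 5.28e-07). Between the combination and MI-503 the leading genes of the list were CTH, which makes cysteine by transsulfuration (0.77, SE 0.11; edgeR adjusted p = 2.63e-05), and GGT5, a gamma-glutamyltransferase family member (−1.75, SE 0.26; edgeR adjusted p = 2.99e-05).

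Among glutathione peroxidases, transferases and glutaredoxins (21 tested of 23), 8 rose and 4 fell with MI-503 (22% and 29.3% of all tested genes). In the combination, 12 rose and 5 fell against DMSO (31.7% and 32.8%), and 8 rose and 4 fell against MI-503 (23.6% and 23.8%). GSTM4, a glutathione S-transferase, went from 16.1 CPM in DMSO to 20.7 in MI-503 and 39.9 in the combination, and was 0.95 above MI-503 on the log2 scale (SE 0.06; edgeR adjusted p = 5.86e-09). GLRX, cytosolic glutaredoxin, went from 11.9 to 16.0 to 24.9 CPM in the same order, 0.64 above MI-503 (SE 0.07; edgeR adjusted p = 7.34e-07). The leading genes for MI-503 against DMSO fell: GLRX2, mitochondrial glutaredoxin, by 0.60 (SE 0.06; edgeR adjusted p = 9.61e-07) and GLO1, glyoxalase 1, by 0.48 (SE 0.06; edgeR adjusted p = 2.23e-06).

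The other thioredoxins, peroxiredoxins and methionine sulfoxide reductases (15 tested of 15) were divided: 4 rose and 7 fell with MI-503 (22% and 29.3% of all tested genes), 5 rose and 6 fell in the combination against DMSO (31.7% and 32.8%), and 3 rose and 6 fell in the combination against MI-503 (23.6% and 23.8%). PRDX3, the mitochondrial peroxiredoxin, was 440.0 CPM in DMSO, 338 in MI-503 and 270.1 in the combination. MSRB3, a methionine sulfoxide reductase, rose from 71.7 CPM in DMSO to 149 in MI-503 and was at 83.7 in the combination, 0.84 below MI-503 (log2 fold change −0.84, SE 0.05; edgeR adjusted p = 9.60e-10). MSRB1 was 1.17 above DMSO in the combination (SE 0.07; edgeR adjusted p = 5.48e-10), and TXNL1, a thioredoxin-like protein bound to the proteasome, was 0.69 above MI-503 (SE 0.05; edgeR adjusted p = 2.39e-08).

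Superoxide dismutases and catalase (4 tested of 5) split 2 up and 2 down with MI-503 (22% and 29.3% of all tested genes). In the combination against MI-503, 3 of the 4 rose (23.6% of all tested genes). CAT, catalase, rose from 70.2 CPM in DMSO to 102 in MI-503 and 142 in the combination. SOD1, cytosolic superoxide dismutase, fell from 126 CPM to 98.8 with MI-503 and stood at 129 CPM in the combination. CCS, its copper chaperone, was 0.89 above DMSO (SE 0.07; edgeR adjusted p = 1.20e-08) and 0.44 above MI-503 (SE 0.07; edgeR adjusted p = 7.37e-05) in the combination. In the combination against DMSO, 2 genes of this list rose and 1 fell (31.7% and 32.8% of all tested genes).

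NADPH feeds both systems, and of the 9 genes for its supply, all tested, 2 rose and 3 fell with MI-503 (22% and 29.3% of all tested genes). In the combination, 6 rose and 3 fell against DMSO (31.7% and 32.8%), and 6 rose and 2 fell against MI-503 (23.6% and 23.8%). IDH1, cytosolic isocitrate dehydrogenase, rose from 110.3 CPM in DMSO to 165 in MI-503 and 185 in the combination, while MTHFD2, a mitochondrial folate enzyme, fell with MI-503 (−0.53, SE 0.04; edgeR adjusted p = 4.24e-08). ME1, malic enzyme 1, was at 6.70 CPM in MI-503 and 28.4 in the combination, or 2.09 in log2 (SE 0.14; edgeR adjusted p = 4.79e-09). TALDO1, transaldolase of the pentose phosphate pathway, was 0.61 above MI-503 (SE 0.05; edgeR adjusted p = 7.44e-08). Of the MTHFD2 exon bases, 29.1% are shared with SLC4A5.

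Of the other genes listed as NRF2 targets (18 tested of 22), 5 rose and 3 fell with MI-503 (22% and 29.3% of all tested genes). In the combination, 11 rose and 3 fell against DMSO (31.7% and 32.8%). Against MI-503, 13 rose and 1 fell (23.6% and 23.8%), and 7 rose at least 2-fold (3.07%). Their median log2 fold change against MI-503 was 0.88. BLVRB, biliverdin reductase B, went from 22.1 CPM in DMSO to 49.1 in MI-503 and 130.6 in the combination (1.41 above MI-503, SE 0.07; edgeR adjusted p = 1.96e-10). SLC48A1, a heme transporter, went from 14.9 to 35.1 to 78.5 CPM (1.16 above MI-503, SE 0.06; edgeR adjusted p = 1.78e-10). Of 7 regulators of the pathway (NFE2L2, NFE2L1, KEAP1, BACH1, MAFF, MAFG and MAFK), 2 rose and 2 fell with MI-503 (22% and 29.3% of all tested genes). In the combination, 6 rose against DMSO (31.7%) and 6 rose against MI-503 (23.6%). MAFG, a small MAF partner, and BACH1, a repressor at the same element, led against DMSO with 0.84 (SE 0.06; edgeR adjusted p = 1.21e-09) and 0.63 (SE 0.05; edgeR adjusted p = 3.72e-09), and MAFF, another small MAF, was 0.81 above MI-503 (SE 0.11; edgeR adjusted p = 1.07e-05).

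**Figure D5:**
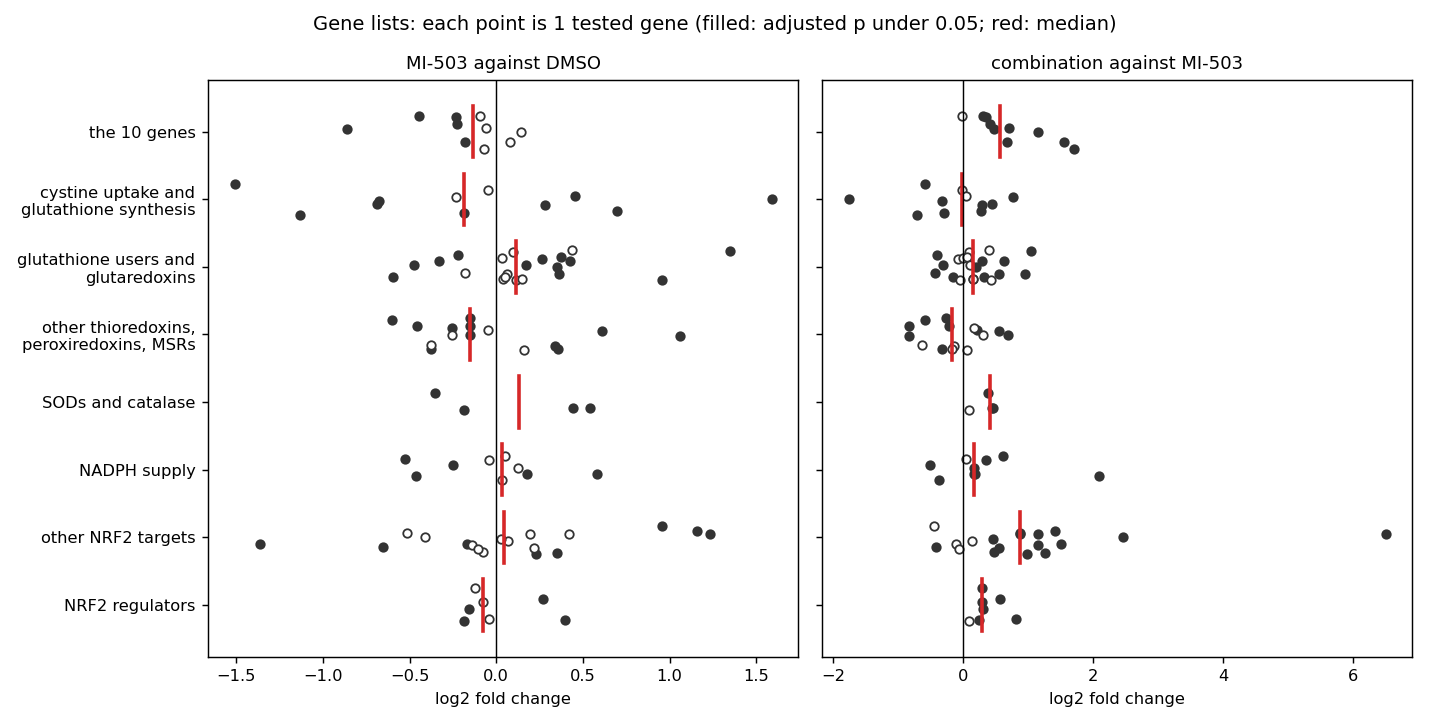
Log2 fold change (x axes) of each tested gene of the 10 and of the other pathway lists, for MI-503 against DMSO on the left and the combination against MI-503 on the right, filled where the edgeR adjusted p was under 0.05, with a red line at each median. On the right the medians of the 10 genes (0.58) and of the other NRF2 targets (0.88) are the 2 farthest above 0, and the list of other thioredoxins and peroxiredoxins has a median of −0.16.

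Genes whose log2 CPM followed each of the 10 most closely over the 11 libraries were listed as a description, among 10032 genes of at least 5 CPM on average (the measure includes the differences between the groups). For GCLM they were ZNF746 (Pearson r = 0.993), LGALS8 (0.990) and GABARAPL1 (0.989), for GCLC UBR3 (0.988), TBK1 (0.988) and BRF2 (0.987), and for SLC7A11 NPL (0.979), TMEM127 (0.976) and ASB16-AS1 (0.974). For SRXN1 they were SLC25A44 (0.983), SEC22B (0.980) and TMEM62 (0.976), for GSR UMAD1 (0.982), KLHL21 (0.978) and HIGD1A (0.975), and for OSGIN1 CRY2 (0.969), ZBTB6 (0.957) and TMEM116 (0.953). PRDX1 was followed by MED10 (0.982), TIMM29 (0.981) and PSMA3 (0.979), NQO1 by SNX9 (0.975), MCM3AP (0.968) and HACD1 (0.965), and TXNRD1 by DCTN3 (0.977), ANKRD11 (0.963) and CDK11B (0.960). TXN had the weakest of these, with C2orf76 at 0.945, CNIH4 at 0.929 and HSD17B10 at 0.917.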

How the data were processed

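MOLM-13 RNA was sequenced after TruSeq library preparation (4 DMSO, 4 MI-503 and 3 combination libraries, grouped by the labels). The deposited values are raw fragment counts per gene. Per the file headers, the authors counted read pairs over hg38 RefSeq exons with featureCounts 2.0.1, without strand; fragments of several loci or several genes were left out by default. The submitters' processing notes name Trimmomatic 0.39, STAR 2.7.10a and DESeq2. The exon length column came from the same headers, and the joined table differed from the single tables in 0 cells. The 2 deposited tables of the authors' own comparisons (fold changes and p-values) were not used.

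Counts were tested with edgeR 4.0.16 (R 4.3.3; limma 3.58.1) by the quasi-likelihood test, two-sided, in 1 model of the 11 libraries with a mean per group, TMM factors (0.956 to 1.056) and filterByExpr (minimum count 10, total 15). P-values were Benjamini-Hochberg adjusted over 14683 genes and called under 0.05. Of the 38557 genes, 11740 had no count. The biological coefficient of variation was 6.14% and the model left 8 residual degrees of freedom. Fold changes are log2 with a standard error (SE) and 95% intervals. Ratios and levels between genes used counts per kilobase of exon. The scripts were tested on simulated data. Alternatives were RLE and upper-quartile scaling, no filter, a minimum count of 50, DESeq2 1.42.0, limma-voom, 2-group fits, a replicate block, and leaving out each library. Motifs and figures used Python 3.11.15 (numpy 2.4.6, pandas 2.3.3, matplotlib 3.10.9).

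The 10 genes and the other lists were chosen with earlier results of these data known. All 10 were named. From each other list, the 2 genes with the smallest adjusted p in each comparison were named. SLC3A2 and GSS were named in addition, for their place beside SLC7A11, GCLC and GCLM. For likeness, the 3 genes with the highest Pearson r were named.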

Additional observations from a re-analysis of the deposited data

Results flagged for a closer look

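In MI-503 replicate 3, HMOX1 was at 0.826 CPM, above the nearest MI-503 library at 0.450 CPM. This gap was 0.896 of the group's whole range, over Dixon's 95% critical value for 4 samples. It was the 1 such case among 22 groups of 4 libraries (the 10 genes and HMOX1 in DMSO and in MI-503), and chance gives about 1 group in 20. The value rests on 20 fragments against 9 to 14 in the other MI-503 libraries.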

How the results depend on the processing

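Of 570 values of the 10 genes under 19 alternatives, 531 kept their direction and their side of the threshold, and 19 of the 22 called changes did so under every alternative; the exceptions were GCLC in MI-503 against DMSO, and GSR and PRDX1 in the combination against DMSO. For MI-503 against DMSO, the number of the 10 genes called higher was 1 instead of 0 with RLE scaling, upper-quartile scaling, no filter, the stricter filter, DESeq2 and the fit of only the groups compared, and the added gene was GCLM. For the combination against DMSO, the number called lower was 1 instead of 2 with upper-quartile scaling, no filter, the stricter filter and the fit of only the groups compared, and the lost gene was PRDX1. With upper-quartile scaling the median log2 fold change of the combination against DMSO was 0.41 instead of 0.34, and SRXN1 in MI-503 against DMSO changed sign to 0.0045. Leaving out each library in turn gave 0 to 1 genes higher, 4 to 5 lower and a median of −0.20 to −0.092 for MI-503 against DMSO, 5 to 7 higher and 1 to 3 lower for the combination against DMSO, and 9 higher with 0 to 1 lower for the combination against MI-503. Signs changed in these fits for values that had not passed: SLC7A11 (−0.034 to 0.17) and OSGIN1 (−0.21 to 0.17) in MI-503 against DMSO, the latter at 0.17 without DMSO replicate 2 and 0.02 without MI-503 replicate 4, and TXN in the combination (−0.24 to 0.010 against DMSO, −0.18 to 0.061 against MI-503, with 0.0050 without MI-503 replicate 3). Beyond the effect of fewer genes or libraries in a fit, the cause was not tested. Depth limited OSGIN1 and HMOX1 most, with 24 to 56 and 5 to 20 fragments in the DMSO and MI-503 libraries.

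Same-numbered replicates did not deviate together: the correlation of their deviations ran from −0.10 to 0.14 for MI-503 against DMSO, −0.02 to 0.05 for the combination against DMSO and 0.05 to 0.08 for the combination against MI-503, so the numbers were not taken as pairs. With the replicate number as a block, 1 gene was called higher in MI-503 against DMSO (GCLM, 0.15; edgeR adjusted p = 0.0287), and 1 was called lower in the combination against DMSO, as PRDX1 (−0.12; edgeR adjusted p = 0.0513) no longer passed, while TXNRD1 passed as higher (0.14; edgeR adjusted p = 0.0385).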
